A study of Mus musculus with 10 samples.

Results

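This report describes 10 genes that control the growth of skeletal muscle, in the gastrocnemius of mice with or without the aryl hydrocarbon receptor (AHR) in their muscle fibres. The genes are Mstn, Acvr2b, Fst, Fstl3 and Smad3 of the myostatin pathway, and Igf1, Igf1r, Igfbp5, Irs1 and Irs2 of the insulin-like growth factor (IGF) pathway. They were taken by symbol from the 49315 genes of the deposited count table through the GRCm38 annotation, and all 10 had enough reads to be tested. All 10 mice were males on the C57BL6J background whose Ahr gene carries loxP sites. The AHRfl group held 5 littermates without Cre (animals 11, 12, 13, 15 and 33). The AHRmko group held 5 mice that also carried HSA-MCM (animals 8, 9, 19, 22 and 34), a tamoxifen-dependent MerCreMer recombinase under the human skeletal actin promoter. That promoter is active in muscle fibres, so the other cells of the muscle keep the floxed gene. Every mouse of both groups breathed cigarette smoke for 16 weeks at 220 ± 80 mg/m3, in 2 sessions of 1 h a day on 5 days a week. By the labels, the muscle was taken 72 h after the last session, and the results text of the study gives a range that ends at 72 h. The labels place 4 weeks between tamoxifen and the first exposure, whereas the main methods of the study give a shorter interval, and whether the AHRfl mice received tamoxifen is not clear from either. The labels give no age, and mice without smoke were not analysed here.

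Myostatin, the product of Mstn, is a secreted member of the TGF-beta family that restrains muscle growth. It binds type II activin receptors such as the product of Acvr2b, which pass the signal to SMAD2 and SMAD3, while follistatin (Fst) and follistatin-like 3 (Fstl3) bind and block the ligand. IGF1 acts in the opposite direction: through its receptor IGF1R and the docking proteins IRS1 and IRS2 it activates PI3K and AKT, which favour protein synthesis. IGFBP5 is a secreted protein that binds IGF1 and is abundant in muscle. AHR is a ligand-activated transcription factor that responds to compounds in tobacco smoke and binds, with its partner ARNT, to DNA that holds the core GCGTG.

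The promoters of 4 members are shown first, and none of these windows overlaps an annotated exon. Each is the run of 250 bases before the RefSeq start (GRCm38.p6), read 5′ to 3′ on the strand of the gene. Capitals mark the AHR core GCGTG, on either strand and therefore also CACGC, and E-boxes, CANNTG. Mstn lies on the + strand at chr1:53061390-53061639, Irs1 on the - strand at chr1:82291440-82291689, Irs2 on the - strand at chr8:11008930-11009179 and Igf1r on the + strand at chr7:67952007-67952256.
Mstn: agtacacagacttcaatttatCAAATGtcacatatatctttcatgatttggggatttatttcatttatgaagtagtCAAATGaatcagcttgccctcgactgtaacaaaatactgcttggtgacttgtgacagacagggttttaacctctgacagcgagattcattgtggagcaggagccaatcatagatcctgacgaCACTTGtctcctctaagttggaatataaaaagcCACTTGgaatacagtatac
Irs1: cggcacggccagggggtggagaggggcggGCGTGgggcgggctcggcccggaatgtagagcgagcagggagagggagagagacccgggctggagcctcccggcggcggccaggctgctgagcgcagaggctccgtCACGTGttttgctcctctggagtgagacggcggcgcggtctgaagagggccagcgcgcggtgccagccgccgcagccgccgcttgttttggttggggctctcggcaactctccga
Irs2: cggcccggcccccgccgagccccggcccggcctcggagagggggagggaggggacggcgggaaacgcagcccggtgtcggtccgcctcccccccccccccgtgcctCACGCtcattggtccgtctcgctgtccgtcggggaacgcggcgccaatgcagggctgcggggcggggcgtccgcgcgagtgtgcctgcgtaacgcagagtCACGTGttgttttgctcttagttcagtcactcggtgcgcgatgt
Igf1r: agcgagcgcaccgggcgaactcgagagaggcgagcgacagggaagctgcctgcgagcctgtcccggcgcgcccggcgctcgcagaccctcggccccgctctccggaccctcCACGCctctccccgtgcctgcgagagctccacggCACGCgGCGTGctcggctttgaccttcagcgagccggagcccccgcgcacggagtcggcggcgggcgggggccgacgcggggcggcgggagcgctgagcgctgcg

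The Mstn promoter held no AHR core and had 4 E-boxes, which began 229, 174, 52 and 19 bases before the start, and a TATA box (TATAAA) 29 bases before it. The promoters of Irs1 and Irs2 each held 1 AHR core, at 221 and 144 bases before the start, and 1 E-box of the palindromic form CACGTG, at 115 and 44 bases. The Igf1r promoter held 3 AHR cores, at 139, 105 and 99 bases, and no E-box. A RefSeq promoter entry was matched for 9 of the 10 members (Fst had none), and 6 of the 9 held an AHR core: Acvr2b, Smad3, Igf1, Igf1r, Irs1 and Irs2. Bases G and C made up 52.8% (Igf1) to 77.6% (Igf1r) of these 6 windows. They made up 38.4% in Mstn, 58.8% in Igfbp5 and 71.2% in Fstl3, which held no core. The members were not compared with promoters of like GC content. Of 32851 promoters of the same length, 28.2% held GCGTG, 66.2% CANNTG, 6.02% CACGTG and 12.4% TATAAA on either strand. CACGTG is also a CANNTG, so its matches are also counted as E-boxes. The SMAD box CAGAC was found in 5 of the 9 and in 42.2% of all promoters. The FOXO site GTAAACA was found in 0 of the 9 and in 3.17% of all. These motifs were chosen after the values of the genes had been seen, and a match of letters is not a measured binding site.

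The libraries held between 30393035 and 37954388 counted reads. Ahr itself was counted at 43 to 110 reads per library in AHRfl and 31 to 80 in AHRmko. In CPM (counts scaled to library size) this was 1.33 to 3.13 against 0.927 to 2.17. The counts sum all exons, and reads on the floxed part were not counted apart. The only gene with an adjusted p under 0.05 was Esr1 (17.1 ± 1.14 CPM in AHRfl against 371 ± 173 in AHRmko, SD, n = 5 each), part of whose coding sequence the MerCreMer transgene carries, and its ranges did not overlap. Muscle identity was plain in every library: the summed level of 5 defining genes (Acta1, Ckm, Des, Ttn and Mb) was 57860 to 69790 CPM in AHRfl and 62340 to 71680 in AHRmko. Summed slow fibre markers varied much more, from 94.8 to 2019 CPM in AHRfl and from 252.4 to 2395 in AHRmko. The animals AHRfl-12 and AHRmko-34 were each the highest of their genotype for Mstn, Smad3, Igfbp5 and Irs2, and AHRmko-34 was the highest for 6 of the 10 genes. Values on leaving out single mice are given beside the fold changes of these 4 genes.

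To compare levels between genes, CPM were divided by the exon length in kilobases. Igfbp5 was the most abundant transcript of the 10, at 53.6 ± 13.8 CPM per kilobase (SD, n = 10 mice), above 95.4% of the genes tested. Mstn followed at 32.1 ± 9.33, which was below Igfbp5 within every one of the 10 mice although the ranges of both genes overlapped. Smad3 (15.6 ± 3.47) and Irs2 (12.4 ± 5.66) came next and were not separated, since Smad3 was above Irs2 in 7 of the 10 mice. A gap followed: Irs1 was at 2.63 ± 0.535 CPM per kilobase, and its highest mouse, at 3.66, was under the lowest Irs2 value of 5.24. Igf1 (1.27 ± 0.248) was below Irs1 in 10 of 10 mice with no overlap of ranges, and Igf1r (0.822 ± 0.0853) was below Igf1 in 10 of 10. The scarcest of the 10 transcripts were Fst, Acvr2b and Fstl3, while the other type II activin receptor gene, Acvr2a, which is not among the 10, was at 4.43 CPM per kilobase. Fst was at 0.618 ± 0.168, Acvr2b at 0.442 ± 0.0755 and Fstl3 at 0.326 ± 0.0990 CPM per kilobase, and each of these ranges overlapped the next. Mstn was above 92.8% of the genes tested, and its inhibitors Fst and Fstl3 were above 27.3% and 17.3%. Other genes for proteins that bind or inhibit myostatin were spread widely. Tcap was above 99.8% of the genes tested, Dcn above 93.7%, Wfikkn2 above 66.1% and Wfikkn1 above 4.23%. The Fstl3 level is limited by an exon overlap with the antisense gene Prss57, given below.

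**Figure D1:**
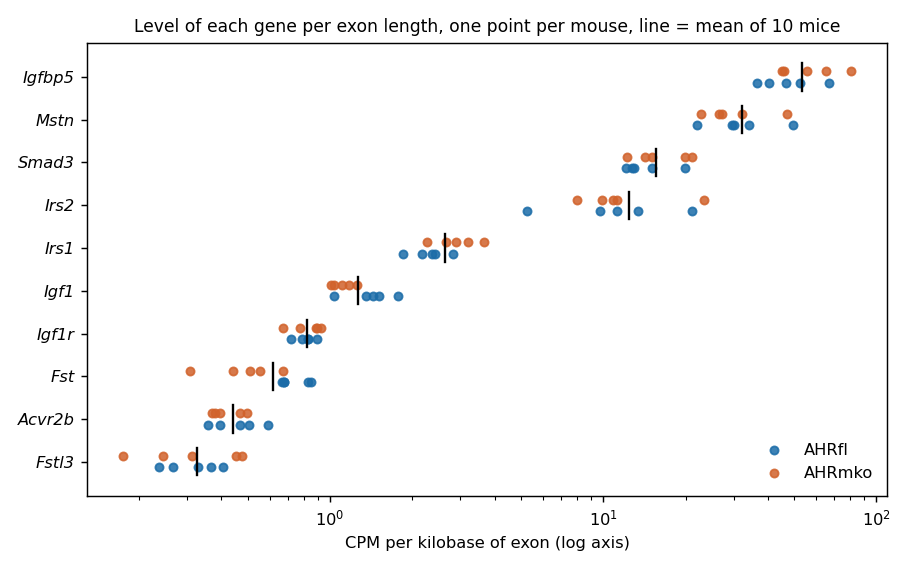
Level of each growth control gene in CPM per kilobase of exon on a log axis, one point per mouse (AHRfl blue, AHRmko orange) with a line at the mean of the 10 mice. Igfbp5, Mstn, Smad3 and Irs2 lie at means of 12.4 or more, and the other 6 genes at 2.63 or less.

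The question of the genotype comparison was whether loss of AHR from the muscle fibres went with a different level of these genes in smoke-exposed muscle. By edgeR's quasi-likelihood test, 0 of the 10 members passed an adjusted threshold of 0.05, beside 0.0068% (1 of 14714) of all genes tested. By DESeq2's Wald test, 0 of the 8 members that were given an adjusted p passed, beside 0.193% of the genes with one. At an unadjusted p under 0.05 in edgeR there were 3 of 10 members, beside 6.61% of all genes: Fst and Igf1 with lower and Irs1 with higher means in AHRmko. The members were chosen with earlier results of these data known, so these shares are not a test of the pathway. The ranges of the genotypes overlapped in all 10 members, whereas they did not overlap in 1.4% of the genes tested. The median log2 fold change was 0.04 over the members and 0.01 over all genes tested. Fold changes are given as AHRmko relative to AHRfl on the log2 scale, with their standard error (SE) and adjusted p over the 14714 genes. In whole muscle, fewer cells of a type and less RNA per cell cannot be told apart.

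The ligand, Mstn (ENSMUSG00000026100, chr1:53061640-53068079, + strand, 2705 exonic bases), was counted with 2079 to 4644 reads per library. Its level was 81.5, 134, 92.3, 59.5 and 80.2 CPM in AHRfl mice 11, 12, 13, 15 and 33, and 61.8, 73.3, 87.3, 71.7 and 127 CPM in AHRmko mice 8, 9, 19, 22 and 34. One mouse of each genotype, AHRfl-12 and AHRmko-34, stood above 120 CPM, and the other 8 lay between 59.5 and 92.3. The means were 89.5 ± 27.5 and 84.2 ± 25.6 CPM (SD, n = 5 each), and the log2 fold change was -0.09 (SE 0.24, 95% interval -0.63 to 0.46, edgeR adjusted p = 0.973). The difference kept its sign without AHRmko-34, at -0.28, and had the other sign without AHRfl-12 (0.10), without AHRmko-8 (0.0058) and with the slow fibre markers as a covariate (0.0848).

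The receptor gene Acvr2b (ENSMUSG00000061393, chr9:119402118-119434995, + strand, 3928 exonic bases) had 49 to 82 reads per library. It was measured at 2.33, 1.56, 1.83, 1.40 and 1.98 CPM in the AHRfl mice and at 1.84, 1.49, 1.46, 1.55 and 1.94 CPM in the AHRmko mice, in the same order of animals. The AHRmko mice lay inside the AHRfl range, with AHRfl-11 the highest mouse and AHRfl-15 the lowest. Its log2 fold change was -0.14 (SE 0.18, 95% interval -0.52 to 0.25, edgeR adjusted p = 0.927), and it was between -0.22 without AHRfl-15 and -0.03 without AHRfl-11.

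Among the inhibitors, Fst (ENSMUSG00000021765, chr13:114452290-114458951, - strand, 4589 exonic bases) had the largest difference of the 10 genes, in size, on 52 to 132 reads per library. Follistatin transcripts were at 3.10, 3.81, 3.05, 3.12 and 3.90 CPM in the AHRfl mice and at 2.02, 1.41, 2.34, 3.08 and 2.54 CPM in the AHRmko mice. Of the AHRmko mice, 4 of 5 were below every AHRfl mouse, and only AHRmko-22 reached into their range. The mean was 3.39 ± 0.420 CPM in AHRfl and 2.28 ± 0.618 in AHRmko (SD, n = 5 each), a ratio of 0.672. The log2 fold change was -0.57 (SE 0.19, 95% interval -0.98 to -0.17), with an unadjusted p of 0.00951 and an adjusted p = 0.652 in edgeR. An exact two-sided permutation test over the assignments of the mice, whose smallest possible p is 0.00794, gave p = 0.0159 before any adjustment. With DESeq2 the adjusted p was 0.264, and on leaving out single mice the fold change was between -0.71 and -0.44. The other inhibitor gene, Fstl3 (ENSMUSG00000020325, chr10:79777272-79782630, + strand, 2445 exonic bases), was the lowest member, with 15 to 43 reads per library. It was at 1.00, 0.577, 0.649, 0.801 and 0.896 CPM in the AHRfl mice and at 1.10, 1.17, 0.428, 0.763 and 0.598 CPM in the AHRmko mice, which spread to both sides of the AHRfl range. Its log2 fold change was 0.06 (SE 0.29, 95% interval -0.57 to 0.69, edgeR adjusted p = 0.986). On leaving out single mice the fold change of Fstl3 was between -0.11 without AHRmko-9 and 0.22 without AHRmko-19. Of its exonic bases 1157, or 47.3%, are shared with the antisense gene Prss57, and the methods make strand-specific counting depend on the kind of library without naming that kind. If strand was not used, reads of this pair cannot be told apart.

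The effector Smad3 (ENSMUSG00000032402, chr9:63646767-63757994, - strand, 5542 exonic bases) had 2319 to 4216 reads per library. SMAD3 carries the signal of the activated receptor into the nucleus. Its transcript was at 67.4, 110, 70.7, 83.9 and 71.7 CPM in the AHRfl mice and at 111, 83.9, 78.9, 67.8 and 117 CPM in the AHRmko mice. AHRfl-12, AHRmko-8 and AHRmko-34 were high and the other 7 mice lay between 67.4 and 83.9. For Smad3 the log2 fold change was 0.18 (SE 0.18, 95% interval -0.21 to 0.57, edgeR adjusted p = 0.890). It was 0.08 without AHRmko-34, 0.10 without AHRmko-8, 0.27 without AHRmko-22 and 0.32 without AHRfl-12.

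**Figure D2:**
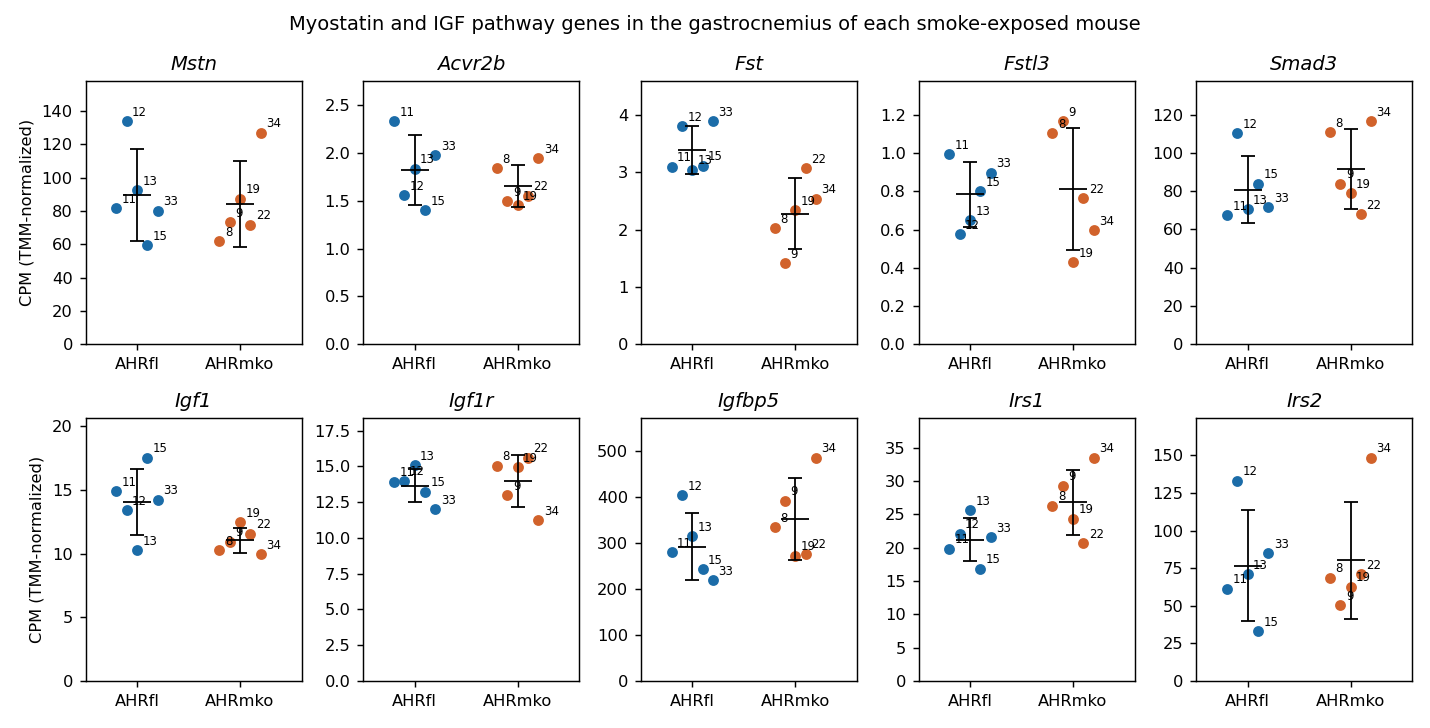
CPM of each growth control gene in every mouse, with animal numbers beside the points and the mean ± SD of each genotype (n = 5) as bars; each panel has its own axis from 0. For Fst 4 of the 5 AHRmko mice lie below the AHRfl mice, and for Mstn and Irs2 mice 12 and 34 stand above the others.

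In the IGF pathway the ligand gene Igf1 (ENSMUSG00000020053, chr10:87858265-87937042, + strand, 9904 exonic bases) had 333 to 612 reads per library. It was at 14.9, 13.4, 10.3, 17.5 and 14.2 CPM in the AHRfl mice and at 10.2, 10.9, 12.4, 11.6 and 9.96 CPM in the AHRmko mice. All 5 AHRmko mice were below the AHRfl mean, but AHRfl-13 was as low as they were. The mean was 14.05 ± 2.62 CPM in AHRfl and 11.03 ± 1.01 in AHRmko (SD, n = 5 each), a ratio of 0.785. The log2 fold change was -0.35 (SE 0.12, 95% interval -0.61 to -0.09), with an unadjusted p of 0.0132 and an adjusted p = 0.665 in edgeR. The exact permutation test gave p = 0.0397 before adjustment, and the DESeq2 adjusted p was 0.375. Leaving out single mice gave -0.44 to -0.26, the smallest size without AHRfl-15. The receptor gene Igf1r (ENSMUSG00000005533, chr7:67952827-68233668, + strand, 16791 exonic bases) was the steadiest of the 10 across mice. With 376 to 593 reads per library it was at 13.9, 13.99, 15.1, 13.2 and 12.02 CPM in the AHRfl mice and at 15.05, 13, 14.9, 15.6 and 11.2 CPM in the AHRmko mice. Its log2 fold change was 0.03 with an SE of 0.10, and the 95% interval of -0.18 to 0.24 was the narrowest among the members (edgeR adjusted p = 0.976). The fold change of Igf1r was -0.0106 without AHRmko-22, -0.0094 without AHRfl-33 and 0.10 without AHRmko-34.

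Igfbp5 (ENSMUSG00000026185, chr1:72857932-72874884, - strand, 6006 exonic bases) was the gene with most reads, 7083 to 16211 per library. It was at 280, 403, 315, 243 and 219 CPM in the AHRfl mice and at 334, 392, 272, 276 and 485 CPM in the AHRmko mice. AHRmko-34 was the highest mouse and AHRfl-33 the lowest, with the rest interleaved. The means were 292 ± 72.1 and 352 ± 89.0 CPM (SD, n = 5 each), and the log2 fold change was 0.27 (SE 0.20, 95% interval -0.16 to 0.70, edgeR adjusted p = 0.845). The difference was 0.13 without AHRmko-34, 0.41 without AHRfl-12 and 0.41 with the slow fibre covariate, and in none of these did the adjusted p pass.

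Of the docking proteins, Irs1 (ENSMUSG00000055980, chr1:82233101-82291416, - strand, 9144 exonic bases) had 589 to 1120 reads per library. It was at 19.8, 22.1, 25.7, 16.9 and 21.6 CPM in the AHRfl mice and at 26.3, 29.3, 24.4, 20.7 and 33.5 CPM in the AHRmko mice. AHRmko-8, AHRmko-9 and AHRmko-34 were above every AHRfl mouse, AHRmko-19 was above the AHRfl mean and AHRmko-22 below it. The mean was 21.2 ± 3.23 CPM in AHRfl and 26.8 ± 4.86 in AHRmko (SD, n = 5 each), a ratio of 1.27. The log2 fold change was 0.34 (SE 0.13, 95% interval 0.05 to 0.63), with an unadjusted p of 0.0241 and an adjusted p = 0.683 in edgeR. The exact permutation test gave p = 0.0794 before adjustment, and the DESeq2 adjusted p was 0.464. Leaving out single mice gave 0.25 to 0.42, and the unadjusted p in edgeR was over 0.05 without AHRfl-11 (0.0534), AHRfl-15 (0.0581), AHRmko-9 (0.0545) or AHRmko-34 (0.0660). Of the exonic bases of Irs1 2822, or 30.9%, are shared with the antisense gene Gm9747, to which the same limit applies. Irs2 (ENSMUSG00000038894, chr8:10984681-11008458, - strand, 6323 exonic bases) was the member that differed most between mice. With 1159 to 4961 reads per library it was at 61.3, 133, 70.8, 33.2 and 85 CPM in the AHRfl mice and at 68.6, 50.5, 62.7, 70.9 and 148 CPM in the AHRmko mice. The highest mouse, AHRmko-34, was 4.48-fold above the lowest, AHRfl-15. The log2 fold change was 0.06 with an SE of 0.41 and a 95% interval of -0.86 to 0.99 (edgeR adjusted p = 0.991), and it was -0.28 without AHRmko-34, 0.36 without AHRfl-12 and 0.28 with the slow fibre covariate.

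**Figure D3:**
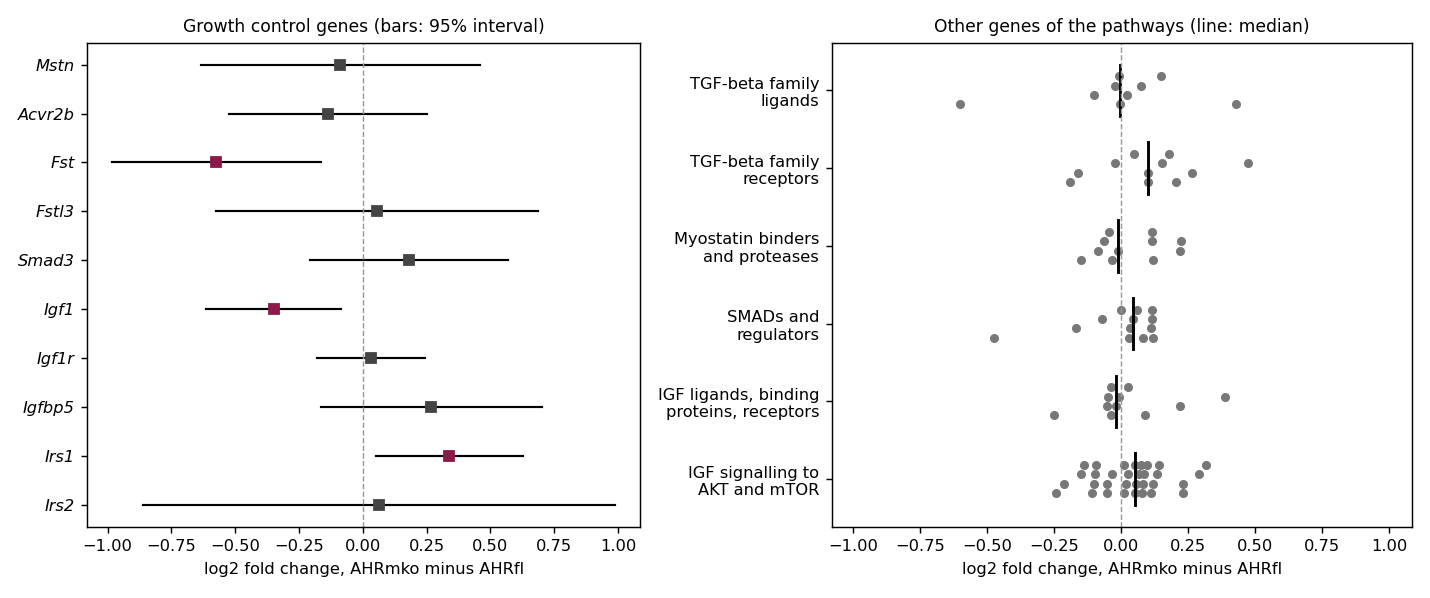
Log2 fold changes, AHRmko relative to AHRfl: on the left each growth control gene with its 95% interval, purple where the unadjusted p was under 0.05, and on the right the tested genes of 6 lists of the same pathways with a line at the median of each list. The intervals of Fst, Igf1 and Irs1 do not reach 0, and those of the other 7 genes do.

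How far the members varied between mice of 1 genotype differed strongly from gene to gene. The within-genotype SD of log2 CPM was 0.66 for Irs2, which was above 97.8% of the 12132 genes with a mean of at least 1 CPM, against a median of 0.17 over those genes. Mstn (0.41, above 89.4% of genes), Igfbp5 (0.35), Fst (0.31) and Smad3 (0.31) were also in the upper part of that distribution. Fstl3 had an SD of 0.45 on a mean under 1 CPM, which is below that set of genes. Irs1 (0.24), Acvr2b (0.24) and Igf1 (0.22) were closer to the median gene, and Igf1r (0.16) was just under it. The SE of each fold change followed this order at its ends, from 0.10 for Igf1r to 0.41 for Irs2.

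Members were then compared with each other mouse by mouse, over 45 pairs and 10 mice. Igf1 and Irs1 were opposed: Pearson's r was -0.874 (permutation p = 0.00083, adjusted p = 0.0373 over the 45 pairs) and Spearman's rho was -0.891 (permutation p = 0.00108, adjusted p = 0.0486). This was the only pair with an adjusted p under 0.05, and 5 pairs had an unadjusted p under 0.05. With DESeq2 size factors its adjusted p was 0.0513 and with total counts 0.0666 (permutation test), so it did not pass under either scaling. AHRfl-15 had the highest Igf1 and the lowest Irs1, and AHRmko-34 the lowest Igf1 and the highest Irs1. The sign was the same inside each genotype, with r = -0.972 over the 5 AHRfl mice and r = -0.700 over the 5 AHRmko mice. After centring each gene within genotype r was -0.794 (permutation p = 0.00639, adjusted p = 0.181), so the adjusted value did not pass within genotypes. Without AHRfl-11 and AHRfl-15, the mice farthest from the median of Igf1, r was -0.738. On leaving out single mice r was between -0.933 and -0.800, and the adjusted p was under 0.05 in 2 of the 10 cases, without AHRmko-8 and without AHRmko-22.

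The next pair was Mstn and Irs2, for which r was 0.859 (permutation p = 0.00259, adjusted p = 0.0583) and rho 0.624 (permutation p = 0.0608, adjusted p = 0.391). Without AHRfl-12 and AHRmko-34, the mice highest in both genes, r was 0.554, so the size of this relation rested in part on them. With these mice kept, r was 0.933 within AHRfl and 0.808 within AHRmko. On leaving out single mice r was 0.795 to 0.920. After centring within genotype r was 0.876 (permutation p = 0.00806, adjusted p = 0.181). Igfbp5 and Irs1 varied in the same direction across mice with r = 0.765 (permutation p = 0.0103, adjusted p = 0.154), and with r = 0.783 without AHRfl-12 and AHRmko-34. Smad3 and Igfbp5 had r = 0.727 (permutation p = 0.0187, adjusted p = 0.211), and 0.605 without AHRmko-8 and AHRmko-34. Igf1 and Igfbp5 were opposed with r = -0.640 (permutation p = 0.0456, adjusted p = 0.372). Mstn and Igfbp5 had r = 0.616 over all mice and -0.025 without AHRfl-12 and AHRmko-34.

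**Figure D4:**
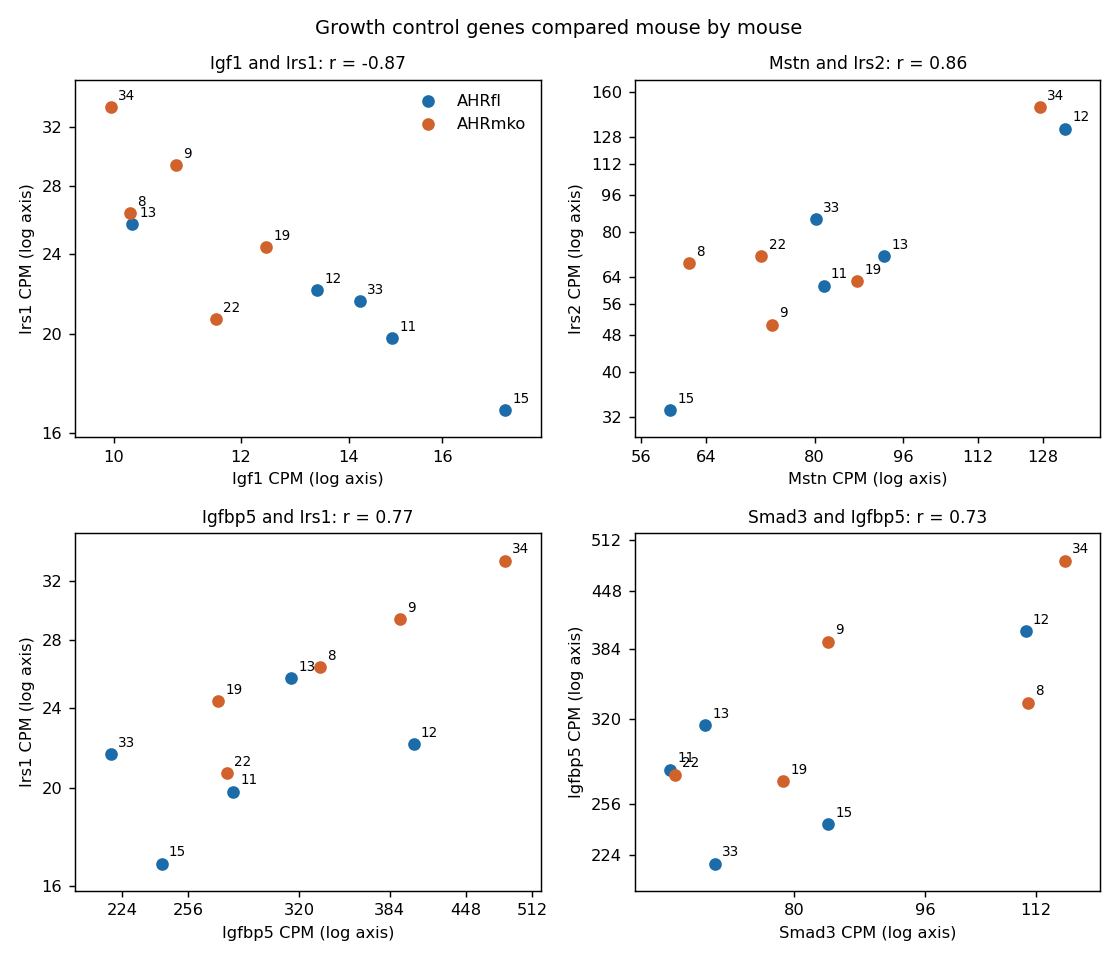
CPM of 4 pairs of growth control genes on log axes, one point per mouse with its animal number (AHRfl blue, AHRmko orange), and Pearson's r over the 10 mice above each panel. Irs1 is lower in mice with more Igf1 (r = -0.87), and mice 12 and 34 lie apart from the others in the panel of Mstn and Irs2 (r = 0.86).

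The muscles also differed in their makeup, and these values stand beside the relations. Over 40 relations of the 10 members to 4 marker lists (slow fibre, fibroblast, macrophage and satellite cell), 0 had an adjusted p under 0.05 and 5 an unadjusted p under 0.05. Mstn was lower in mice with higher slow fibre markers, with r = -0.732 (permutation p = 0.0149, adjusted p = 0.318), and -0.498 without AHRfl-12 and AHRmko-8. Irs1 was lower (r = -0.702, permutation p = 0.0238, adjusted p = 0.318) and Igf1 higher (r = 0.576, permutation p = 0.0827, adjusted p = 0.472) in mice with higher fibroblast markers, the opposite signs also seen between these genes. Igfbp5 (r = -0.728, permutation p = 0.0187, adjusted p = 0.318) and Mstn (r = -0.662, permutation p = 0.0382, adjusted p = 0.369) likewise were lower where fibroblast markers were higher. The summed level of the 8 fibroblast markers was 198 to 394 CPM in AHRfl and 208 to 369 CPM in AHRmko, with none of the 8 at 0 in any mouse. With that list as a covariate the log2 fold changes kept their sign for Fst, Igf1 and Irs1. The summed levels of the macrophage list were 35.6 to 58.4 CPM in AHRfl and 31.2 to 69.7 CPM in AHRmko, those of the satellite cell list 35.8 to 45.7 and 38.8 to 54.2, and the part of any of these cells in the relations was not tested.

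**Figure D5:**
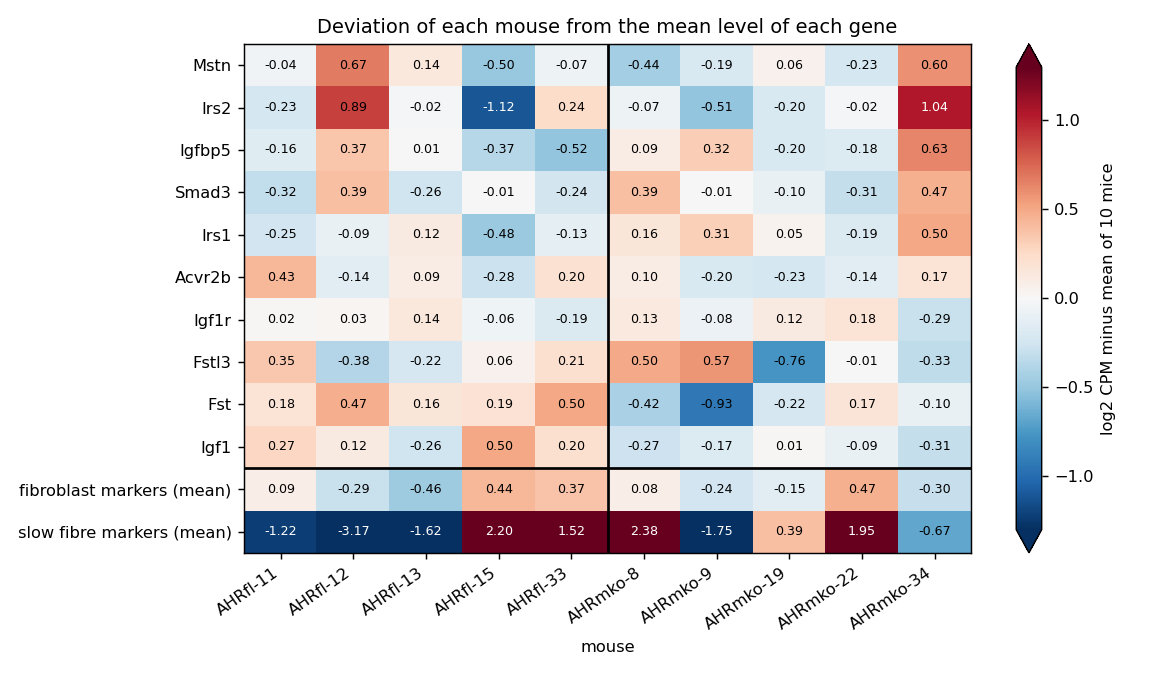
Each cell gives log2 CPM of a gene in a mouse minus its mean over the 10 mice (red higher, blue lower, scale ending at ±1.3), with the mean of the fibroblast and slow fibre markers in the lowest rows and a vertical line between the genotypes. AHRfl-12 and AHRmko-34 are high for Mstn, Irs2, Igfbp5 and Smad3, and AHRfl-15 is low for Irs2, Mstn and Irs1 with a high Igf1.

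For context, 102 further genes of the same pathways were listed, and 87 of them had enough counts to be tested. By edgeR 0 passed the adjusted threshold of 0.05, while 5 had an unadjusted p under 0.05 with a higher and 1 with a lower mean in AHRmko, beside 6.61% of all genes tested at that threshold in either direction. The means of 51 were higher and of 36 lower, with a median log2 fold change of 0.03. From each list the genes named are the most abundant per length and those with the smallest unadjusted p, by rule. Among the ligands, 9 of 14 were tested and the median was -0.01: the abundant Tgfb3 (35.7 ± 1.96 against 35.1 ± 5.33 CPM) and Tgfb2 (36.4 ± 4.07 against 37.0 ± 14.0) had fold changes of -0.03 and 0.02. Both signs turned on leaving out a mouse, to 0.0352 for Tgfb3 without AHRmko-19 and to -0.23 for Tgfb2 without AHRmko-34. The activin subunit genes Inhba (-0.60, SE 0.31) and Inhbb (0.43, SE 0.30) lay on opposite sides with adjusted p of 0.787 and 0.834, and Inhbb was 0.71 without AHRfl-12 and 0.23 without AHRfl-13. Among the receptors, 11 of 12 were tested and the median was 0.10. Acvr1b, a type I receptor used by myostatin, was at 41.6 ± 8.55 and 47.1 ± 8.83 CPM (0.18, SE 0.15, with 0.06 without AHRmko-22 and 0.28 without AHRfl-15), and Bmpr1a at 49.1 ± 5.59 and 50.7 ± 3.97. Tgfbr3, the co-receptor betaglycan, was at 18.8 ± 1.61 and 21.6 ± 2.13 CPM (0.20, SE 0.08, unadjusted p of 0.0309, adjusted p = 0.707 in edgeR). Its unadjusted p in edgeR was over 0.05 with total counts (0.0721) and with the slow fibre covariate (0.0554). The same held without AHRfl-11 (0.0689), AHRfl-13 (0.0872), AHRmko-19 (0.0671) or AHRmko-22 (0.0946). The pseudoreceptor gene Bambi was near 1 CPM, with a fold change of 0.47 (SE 0.24).

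Of the listed proteins that bind, inhibit or activate myostatin or other TGF-beta family ligands, 11 of 14 were tested. Their median was -0.01, and none had an unadjusted p under 0.05. Tcap, a sarcomere protein that binds myostatin, was by far the most abundant, at 2805 ± 191 CPM in AHRfl and 2528 ± 445 in AHRmko (-0.15, SE 0.11). The difference was -0.07 without AHRmko-34 and -0.25 without AHRmko-22. Dcn, the matrix proteoglycan decorin, was at 217 ± 40.8 and 211 ± 63.8 CPM, and Wfikkn2, which encodes a myostatin antagonist, at 15.9 ± 1.52 and 17.3 ± 0.806. Of the SMAD genes and their regulators 13 of 14 were tested, with a median of 0.04. Zfyve9, which presents SMADs to the receptor, was at 67.8 ± 7.43 and 73.1 ± 2.74 CPM, and Smad4, the common partner, at 32.03 ± 2.45 and 30.5 ± 3.49. The corepressor gene Tgif1 had the lowest fold change of that list, -0.48 (SE 0.30, edgeR adjusted p = 0.819), which was -0.16 without AHRfl-12 and -0.28 with the slow fibre covariate.

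Of the other IGF ligand, binding protein and receptor genes 11 of 15 were tested, with a median of -0.02. Ghr, the growth hormone receptor, through which Igf1 is induced, was at 104.8 to 122.6 CPM in AHRfl and 124.8 to 141.1 in AHRmko, so that the ranges did not overlap. Its means were 115 ± 7.47 and 133 ± 6.98 CPM (SD, n = 5 each). The log2 fold change was 0.22 (SE 0.06, unadjusted p of 0.00468, adjusted p = 0.606 in edgeR), while that of Igf1 had the other sign. Igf2, the fetal IGF ligand, was at 10.96 ± 1.98 and 14.3 ± 1.87 CPM (0.39, SE 0.13, unadjusted p of 0.00936, adjusted p = 0.647 in edgeR), again opposite to Igf1. The abundant binding protein genes Igfbp7 (46.2 ± 8.70 against 38.7 ± 5.16 CPM, -0.25, SE 0.13) and Igfbp6 (27.6 ± 6.38 against 27.3 ± 9.06) did not pass the test. Of the genes from the IRS proteins to AKT and mTOR 32 of 33 were tested, with a median of 0.05. Pik3ca, a catalytic PI3K subunit that acts downstream of the IRS proteins, was at 53.4 ± 3.12 CPM in AHRfl and 45.2 ± 5.25 in AHRmko (-0.24, SE 0.08, unadjusted p of 0.0101, adjusted p = 0.665 in edgeR). The adaptor gene Shc1 was at 19.7 ± 0.788 and 21.7 ± 1.10 CPM (0.14, SE 0.06, edgeR adjusted p = 0.725), and its ranges did not overlap. The abundant Akt1s1 (-0.14, SE 0.08) and Foxo4 (0.08, SE 0.07) did not pass the test, and were at -0.07 and 0.05 without AHRmko-8. Ghr and Shc1 were the 2 of 87 genes whose genotypes did not overlap, beside 1.4% of all genes tested.

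The genes whose levels followed a member most closely over the 10 mice were taken from 12123 genes with a mean of at least 1 CPM, by Pearson's r of log2 CPM. Mstn was followed by Vars (r = 0.981) and Hoxc10 (r = 0.973), and 4.21% of the genes had an r over 0.8 with it. Igfbp5 was followed by Nt5dc3 (r = 0.976) and Acvr2a (r = 0.955), the second type II activin receptor. Irs2 was followed by Vwa1 (r = 0.943) and Edrf1 (r = 0.940), Irs1 by Strbp (r = 0.944) and Tbc1d16 (r = 0.919), and Smad3 by Slc23a2 (r = 0.933) and Tmem33 (r = 0.907). Igf1 was followed by Erg28 (r = 0.966) and Mrpl34 (r = 0.961), Igf1r by the pseudogene Gm14760 (r = 0.915) and Tspan13 (r = 0.875). The inhibitor genes had Tma7-ps (r = 0.930) and Clpp (r = 0.903) beside Fst, and Pot1b (r = 0.952) and Kifc3 (r = 0.948) beside Fstl3. These are the highest of 12123 values for each of these 9 members over 10 mice that also differ in genotype and fibre makeup, and they are given as a description.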

How the data were processed

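Gastrocnemius RNA of 10 mice was sequenced by the authors as poly(A)-selected paired-end libraries. Per the labels and the study's methods, reads were trimmed with Trimmomatic 0.36, aligned to GRCm38 with STAR 2.5.2b and counted on exons with featureCounts. The deposited values are these raw counts, for 49315 gene identifiers, of which 49056 were matched to GENCODE M21. The annotation release and whether the libraries were strand-specific are not given in the sources used here. The members and lists were chosen with earlier results of these data known.

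Counts were fitted over all genes in edgeR 4.0.16 (TMM library sizes, filterByExpr at its defaults of 10 reads and 15 in total, robust quasi-likelihood test, Benjamini-Hochberg adjustment over 14714 genes), after the script was tested on simulated data. CPM use TMM library sizes, and log2 CPM a prior count of 2. Single values had a two-sided exact permutation test, and relations a two-sided one with 100000 resamples. Alternatives were DESeq2 1.42.0, limma 3.58.1 (voom), other library sizes, no filter or one on 10 reads in every mouse, no robust estimation, marker covariates and leaving out each mouse. All members are named. From each list are named the pair most abundant per length and the pair with the smallest p. The genes most similar to Acvr2b are not reported here. Same-genotype libraries differed beyond sampling noise (chi-square per degree of freedom 10.6 or more). The animals are separate mice, and no batch is labelled.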

Additional observations from a re-analysis of the deposited data

How the results depend on the processing

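With each other setting named above, the fibroblast marker covariate, which was chosen after seeing the data, and each mouse left out in turn, 0 members and 0 pathway genes had an adjusted p under 0.05. The lowest adjusted p of a member was 0.264, for Fst in DESeq2. Over all genes the calls at that threshold numbered 1 in edgeR, 21 with DESeq2, 5 with no filter, 2 with the slow fibre covariate and 1 to 6 on leaving out single mice (6 without AHRmko-34). Fst (-0.62 to -0.57), Igf1 (-0.39 to -0.31), Irs1 (0.30 to 0.41), Igfbp5, Smad3 and Acvr2b kept their sign in all of these, with the ranges given here over the settings that kept all mice. Mstn was 0.0848 with the slow fibre covariate and -0.28 to 0.10 on leaving out single mice. Fstl3 was -0.0022 with voom and -0.11 to 0.22, Igf1r -0.0106 to 0.10 and Irs2 -0.28 to 0.36 on leaving out mice. Among pathway genes, Tgfb2 was -0.0438 with voom, -0.0036 with total counts, -0.0345 with the fibroblast covariate and -0.23 to 0.11 on leaving out mice, and Igfbp6 was 0.0273 with the fibroblast covariate, -0.17 with the slow fibre covariate and -0.16 to 0.12. Leaving out mice gave -0.12 to 0.0352 for Tgfb3, -0.0231 to 0.0851 for Bmpr1a and -0.21 to 0.0555 for Dcn. The cause was not tested. Of the relations between members, 1 had an adjusted p under 0.05, 0 with DESeq2 size factors, 0 with total counts, 0 after centring within genotype, and 0 to 2 on leaving out mice (2 without AHRmko-8). Of the relations to marker lists 0 passed, and 1 after centring. The median log2 fold change of all genes lay between -0.0123 and 0.0099 over these settings. Depth limits Fstl3, with 15 reads in its lowest library. No paired analysis was made, because the labels do not give the litter of each mouse.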

Other observations

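Of 65 cell type markers tested, 2 had an unadjusted p under 0.05, beside 6.61% of all genes tested. Myod1, which encodes a transcription factor of myogenic cells and is a gene of the satellite cell list, was at 9.67 ± 2.03 CPM in AHRfl and 14.5 ± 3.71 in AHRmko (SD, n = 5 each), with a log2 fold change of 0.59 (SE 0.18, edgeR adjusted p = 0.606). Of the 5 tested genes of that list 3 had higher and 2 lower means in AHRmko, with a median of 0.03. Scx, a transcription factor of tendon cells, was at 6.56 ± 0.731 and 4.18 ± 1.24 CPM, with a log2 fold change of -0.65 (SE 0.18, edgeR adjusted p = 0.606). Its list had 5 of 6 genes with higher means in AHRmko and a median of 0.05, so Scx was its only gene with a lower mean. Neither gene passed the adjustment.

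After centring within genotype, 1 of the 40 relations to marker lists had an adjusted p under 0.05. Fstl3 was lower in mice with higher satellite cell markers (r = -0.874 centred, permutation p = 0.000347, adjusted p = 0.0139), and r was -0.925 within the 5 AHRfl mice and -0.945 within the 5 AHRmko mice. Over all 10 mice it was -0.644 (permutation p = 0.0461, adjusted p = 0.369). Fstl3 had at most 43 reads in a library and shares exons with Prss57. The satellite cell value is the mean log2 CPM of the listed genes, each with equal weight. Of these, Calcr had 1 to 16 reads per library and was removed by the low-count filter, and Myf5 had 30 to 56. Low counts therefore limit both sides of this relation.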
